A study of Homo sapiens with 11 samples.

Results

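The MCM genes described here are MCM2, MCM3, MCM4, MCM5, MCM6, MCM7, MCM8 and MCM10, which are 8 of the 22109 genes that have a transcript cluster with a single gene symbol on the array. A transcript cluster is a group of probes read together for 1 transcribed locus. Each of the 8 genes had 1 such cluster, and all 8 passed the level filter that left 12147 genes for testing. The study measured RNA of MV4-11, an established human acute myeloid leukaemia cell line, on 11 Affymetrix arrays with 1 array per condition. On 8 arrays the shRNAs targeting RUNX1, RUNX2 and RUNX3 were present singly, in pairs or all together (7 arrays), or were absent (shLuc, with a luciferase shRNA). All 8 knockdown cultures, shLuc included, were transduced and then received doxycycline at 3 µM for 24 hours. The other 3 arrays are of cells treated for 6 hours with Chb-M' at 1 µM, Chb-50 at 1 µM, or DMSO, with no doxycycline listed. The RUNX genes encode DNA-binding transcription factors, and the series asked how their knockdown, or treatment with the 2 alkylating PIP conjugates, changed expression across the genome.

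MCM2 to MCM7 encode the subunits of a ring-shaped complex that is the core of the replicative DNA helicase. The ring is loaded onto replication origins in G1 by the origin recognition complex with CDC6 and CDT1, and it becomes an active helicase in S phase when CDC45 and the GINS complex join it. MCM10 takes part in that activation, and MCM8 works with MCM9 in homologous recombination and the repair of interstrand crosslinks. Genes of the loading step are known targets of E2F transcription factors in proliferating cells.

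Promoter windows from RefSeq (GRCh38.p14) are shown because the MCM genes moved together across the arrays. Windows were found for 6 of the 8 genes, with 3 starts for MCM7, and no window is shown for MCM4 and MCM5. Each sequence below runs 5′ to 3′ on the gene's strand, from 200 bases before the start to 25 bases after it. Capitals mark an E2F-type word on either strand, and overlapping matches are drawn as 1 stretch. The words searched were TTTCCCGC, TTTCGCGC, TTTGCCGC and TTTGGCGC, and the same 4 with G as the last letter, which were added after the MCM10 promoter had been read.
MCM2, chr3:127598211-127598435, plus strand: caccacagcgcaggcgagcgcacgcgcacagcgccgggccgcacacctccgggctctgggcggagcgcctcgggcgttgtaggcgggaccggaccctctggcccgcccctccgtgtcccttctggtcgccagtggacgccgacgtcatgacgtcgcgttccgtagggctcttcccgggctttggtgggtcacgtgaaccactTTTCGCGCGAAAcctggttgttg
MCM3, chr6:52284718-52284942, minus strand: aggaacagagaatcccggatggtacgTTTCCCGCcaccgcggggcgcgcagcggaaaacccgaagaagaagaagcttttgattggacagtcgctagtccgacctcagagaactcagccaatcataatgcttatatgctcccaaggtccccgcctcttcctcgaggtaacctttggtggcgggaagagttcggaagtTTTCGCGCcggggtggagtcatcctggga
MCM6, chr2:135876419-135876643, minus strand: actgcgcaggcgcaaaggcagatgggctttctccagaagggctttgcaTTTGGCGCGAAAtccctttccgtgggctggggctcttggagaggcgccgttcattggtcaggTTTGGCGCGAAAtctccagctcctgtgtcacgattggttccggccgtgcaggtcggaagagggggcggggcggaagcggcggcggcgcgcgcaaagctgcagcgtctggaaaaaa
MCM7, chr7:100101373-100101597, minus strand, the first of its 3 starts: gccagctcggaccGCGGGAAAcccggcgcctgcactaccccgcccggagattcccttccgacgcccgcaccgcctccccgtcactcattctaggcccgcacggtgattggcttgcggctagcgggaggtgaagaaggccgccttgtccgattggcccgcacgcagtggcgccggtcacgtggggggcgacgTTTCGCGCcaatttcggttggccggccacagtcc
MCM10, chr10:13161358-13161582, plus strand: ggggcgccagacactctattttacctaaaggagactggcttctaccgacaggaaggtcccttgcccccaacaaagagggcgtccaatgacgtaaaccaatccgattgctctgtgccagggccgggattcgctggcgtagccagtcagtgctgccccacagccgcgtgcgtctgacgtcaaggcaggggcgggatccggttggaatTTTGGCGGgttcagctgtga

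Over the full window of 300 bases (250 before the start and 50 after it), a word of the first E2F set was present in 5 of the 6 genes, MCM2, MCM3, MCM6, MCM7 and MCM8. Counted by window, 5 of the 8 windows of these genes held such a word, against 3.31% of all 35116 promoter windows. MCM3, MCM6 and the first window of MCM7 each held 2 separate stretches, and in MCM8 the match began 27 bases after the start, beyond the stretch drawn for the other genes. MCM10 held none of the first set and 1 word of the variant set, which 3.03% of all windows hold. The variant set was added after the MCM10 promoter had been read, so its match there was known beforehand. For MCM7, the windows of the other two starts held none of the first set, and 1 of them held a word of the variant set. The RUNX word TGTGGT was present in MCM2 alone among the 6 genes (13.1% of all windows), and TGCGGT in MCM10 and in 1 of the MCM7 windows (7.29%). The word TTTGAA, known from promoters of late cell cycle genes, was in none of the windows of these 6 genes and in 15.2% of all windows. These matches describe letters in the windows and do not show binding.

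Array medians over the tested genes lay between 5.86 and 5.91 on the log2 scale, so the arrays were closely scaled. Of the targeted genes, RUNX2 was at 5.72, 5.70, 5.56 and 5.82 on the 4 arrays with its shRNA, against 6.30, 6.00, 6.13 and 6.14 on the 4 without it, with no overlap. RUNX3 was at 7.76, 7.65, 7.87 and 7.66 with its shRNA, against 7.70, 8.24, 8.37 and 8.15 without it. These overlapped, since the shRUNX1 array (7.70) lay among the arrays with the RUNX3 shRNA. RUNX1 was measured on a cluster it shares with LOC100506403, at 4.12, 4.26, 4.03 and 3.96 with its shRNA, against 4.45, 4.20, 4.24 and 4.30 without it, which also overlapped. This low, shared cluster is a weak check of the RUNX1 label, and the conditions are named as labelled. Of the myeloid markers, 9 had a cluster and passed the level filter (3.80 reached on at least 1 array), from LYZ (11.05 to 11.60 over the arrays) down to MPO (4.89 to 5.50) and ITGAM (3.84 to 4.49), which lay near the filter. Of the markers of other lineages with a cluster, 3 of 9 passed it, namely the B cell gene CD79A (4.11 to 4.92), KRT18 (3.16 to 4.21) and KLF1 (3.19 to 4.18), while the T cell gene CD3D lay between 2.23 and 2.60.

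All 8 MCM genes were lower on the 4 arrays with the RUNX1 shRNA than on the 4 without it, and the lowest levels were on the 2 arrays that carried the RUNX1 and RUNX3 shRNAs together. MCM2, a subunit of the ring, was at 8.20 on the shRUNX1+shRUNX3 array, 8.28 on shRUNX1+shRUNX2+shRUNX3, 8.77 on shRUNX1+shRUNX2 and 9.06 on shRUNX1. Without the RUNX1 shRNA, MCM2 was at 9.19 on shRUNX2+shRUNX3, 9.30 on shRUNX3, 9.13 on shRUNX2 and 9.27 on shLuc. The 4 arrays without the shRNA thus lay close together, and the 4 with it were spread out below them. MCM3, another subunit, was at 8.35, 8.45, 8.93 and 9.15 on the 4 arrays with the RUNX1 shRNA, in the same array order, against 9.37, 9.42, 9.35 and 9.43 on those without it. MCM4 was at 9.23, 9.41, 9.98 and 10.04 with the RUNX1 shRNA, against 10.21, 10.16, 10.19 and 10.27 without it. In both genes the shRUNX1 and shRUNX1+shRUNX2 arrays lay between the lowest 2 arrays and those without the RUNX1 shRNA.

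MCM5, the subunit that neighbours MCM2 at the opening of the ring, was at 8.80, 8.87, 9.24 and 9.31 with the RUNX1 shRNA, against 9.48, 9.47, 9.56 and 9.56 without it. MCM6 was at 8.54, 8.69, 9.09 and 9.43 with it, against 9.57, 9.57, 9.49 and 9.58 without it. MCM7 was at 9.10, 9.16, 9.39 and 9.57 with it, against 9.66, 9.74, 9.65 and 9.64 without it. MCM7 had the narrowest range of the 8 genes, and its shRUNX1 array came within 0.07 of shLuc. MCM8, the recombination helicase subunit, was at 8.50, 8.54, 9.06 and 9.20 with the RUNX1 shRNA, against 9.31, 9.41, 9.37 and 9.36 without it. MCM10, the activation factor, was at 7.22, 7.46, 8.17 and 8.34 with it, against 8.58, 8.67, 8.52 and 8.42 without it. MCM10 had the widest range, 1.76 over all 11 arrays, against 0.64 for MCM7. In bulk RNA, fewer cells of a type and less RNA per cell cannot be told apart.

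**Figure D1:**
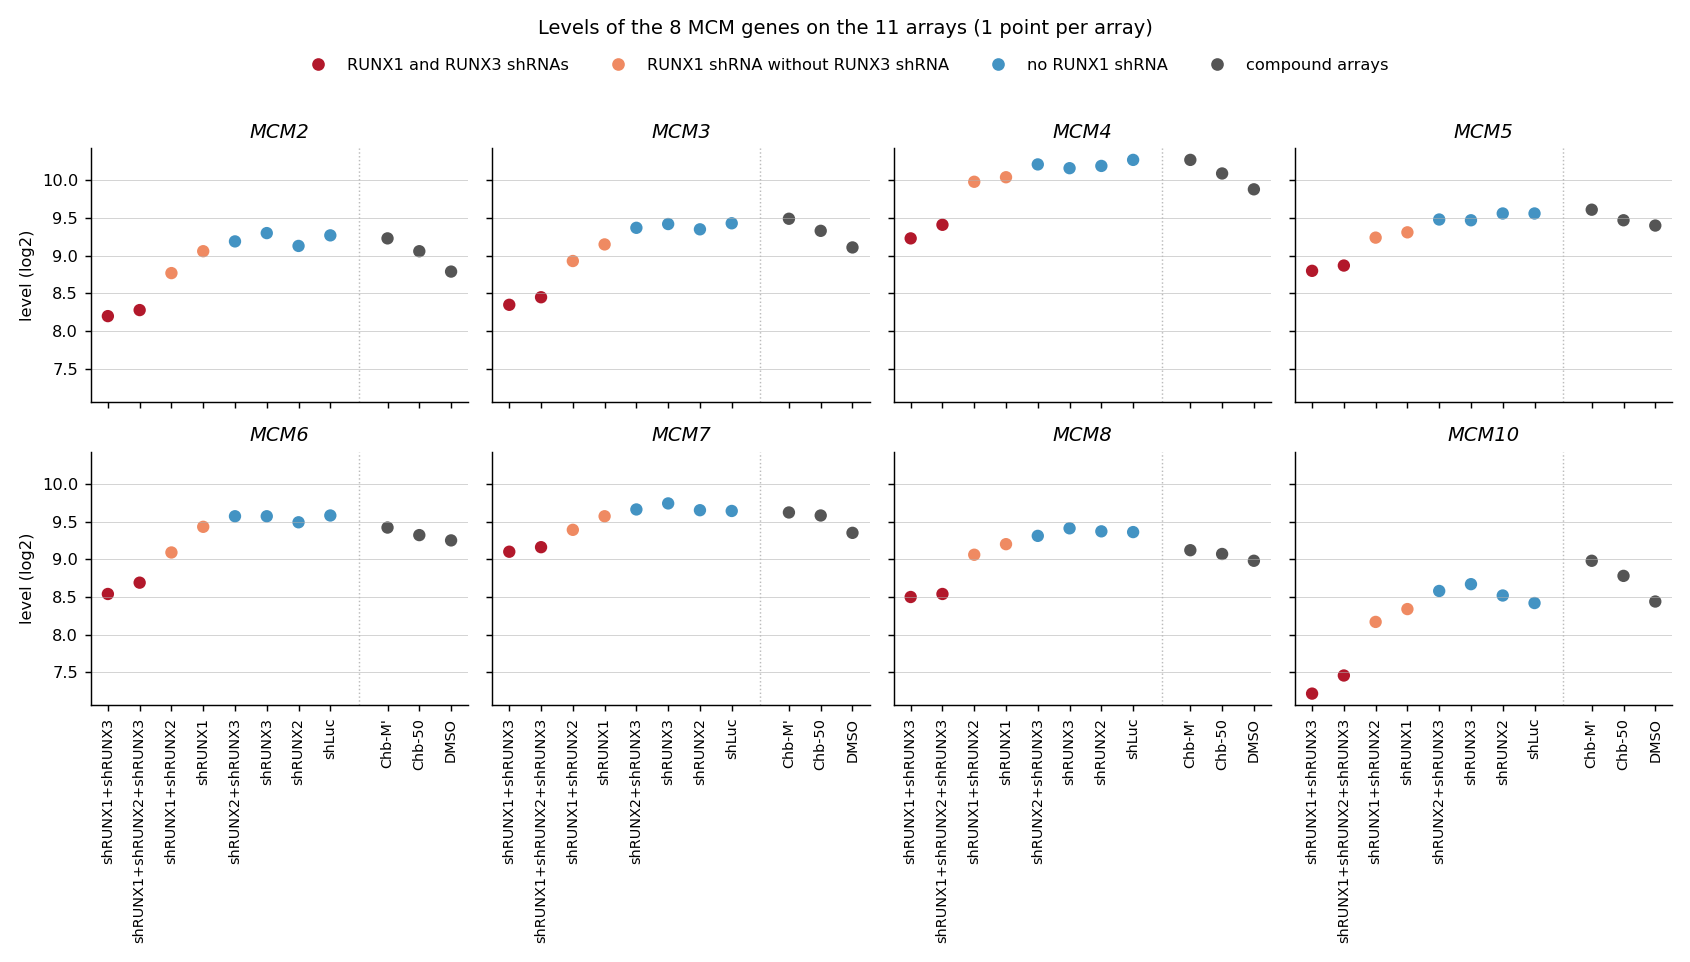
Level on the log2 scale (vertical axis) of each MCM gene on each of the 11 arrays (horizontal axis), 1 point per array and no error bars because each condition has 1 array. In every panel the 2 dark red points, the arrays with both the RUNX1 and RUNX3 shRNAs, lie below the other knockdown arrays, by 0.23 (MCM7) to 0.71 (MCM10).

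The separation by the RUNX1 shRNA, with no overlap between the 4 arrays with it and the 4 without it, held for 8 of 8 MCM genes. Over all tested genes, 574 (4.73%) lay lower with no overlap. An additive limma fit on the 8 knockdown arrays, with 1 term per shRNA, gave RUNX1 terms between -0.37 (MCM7) and -0.75 (MCM10) on the log2 scale, with a median of -0.58 against 0.01 for all genes tested. The term was -0.64 ± 0.15 (SE) for MCM2, -0.67 ± 0.137 for MCM3 and -0.46 ± 0.0843 for MCM5. None of the 8 genes passed an adjusted p of 0.05 in this fit, where limma's Benjamini-Hochberg adjusted p lay between 0.089 (MCM5) and 0.127 (MCM10). The fit called 0 of the 12147 genes lower (0%). An unadjusted limma p under 0.05 was seen for 2580 genes (21.2%) in either direction. Of these, 1217 were lower, all 8 MCM genes among them.

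The call depended on how the RUNX1 and RUNX3 shRNAs were modelled. The estimates are the same when a RUNX1:RUNX3 product is added to the model, but the residual spread is smaller, and limma then called 8 of 8 MCM genes lower with adjusted p between 0.0174 and 0.0296, against 405 of all genes (3.33%). With all pairwise products 7 of 8 were called, against 239 of all genes called lower (1.97%). Among the settings that left out 1 knockdown array, MCM genes were called only without the shRUNX1 array. That setting gave 8 of 8, with limma adjusted p between 0.0344 and 0.0472 and 455 genes called lower (3.75%). Its median RUNX1 term was -0.70, further from 0 than with all arrays. Without the shRUNX1+shRUNX3 array none was called, with limma adjusted p from 0.216 to 0.28. On the 6 arrays that do not combine the RUNX1 and RUNX3 shRNAs, a setting chosen after seeing the data, the median RUNX1 term was -0.26 and none was called, with limma adjusted p from 0.617 to 0.71. All 8 estimates stayed negative there, from -0.35 for MCM3 to -0.17 for MCM7.

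Between arrays alike in all but the RUNX1 shRNA, every MCM gene was lower in 4 of 4 pairs. For MCM10 the differences were -1.45 and -1.11 in the 2 pairs that carried the RUNX3 shRNA on both arrays, against -0.34 and -0.09 in the 2 pairs without it. For MCM2 they were -1.09 and -0.91 with the RUNX3 shRNA present, against -0.36 and -0.22 in its absence. For MCM5, whose interaction estimate was the smallest in size, they were -0.67 and -0.61 with the RUNX3 shRNA, against -0.32 and -0.25 without it. In each of the 8 genes both differences with the RUNX3 shRNA present were larger in size than both without it.

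The RUNX3 shRNA alone left the MCM genes near shLuc. On the shRUNX3 array 4 of 8 were below shLuc, and the differences ran from -0.11 (MCM4) to 0.25 (MCM10). Added to the RUNX1 shRNA, it went with differences of -1.12 for MCM10, -0.85 for MCM2 and -0.81 for MCM4 between the shRUNX1+shRUNX3 and shRUNX1 arrays. Between the triple and shRUNX1+shRUNX2 arrays the differences were smaller in size, -0.71 for MCM10, -0.49 for MCM2 and -0.57 for MCM4. RUNX3 itself was at 7.65 on shRUNX1+shRUNX3 and 7.70 on shRUNX1, but at 7.66 on the triple array and 8.37 on shRUNX1+shRUNX2. The larger MCM differences thus did not go with the larger RUNX3 difference, and a link between them was not tested. The additive RUNX3 term had a median of -0.31 and was called for 0 of 8 genes and for 0% of all genes in the lower direction, with limma adjusted p from 0.473 to 0.645. The RUNX2 term had a median of -0.05, with estimates from -0.12 (MCM2) to 0.02 and limma adjusted p from 0.978 to 0.999, and it likewise called 0% of all genes lower. Those RUNX2 estimates changed sign for each of the 8 genes when 1 array or another was left out.

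**Figure D2:**
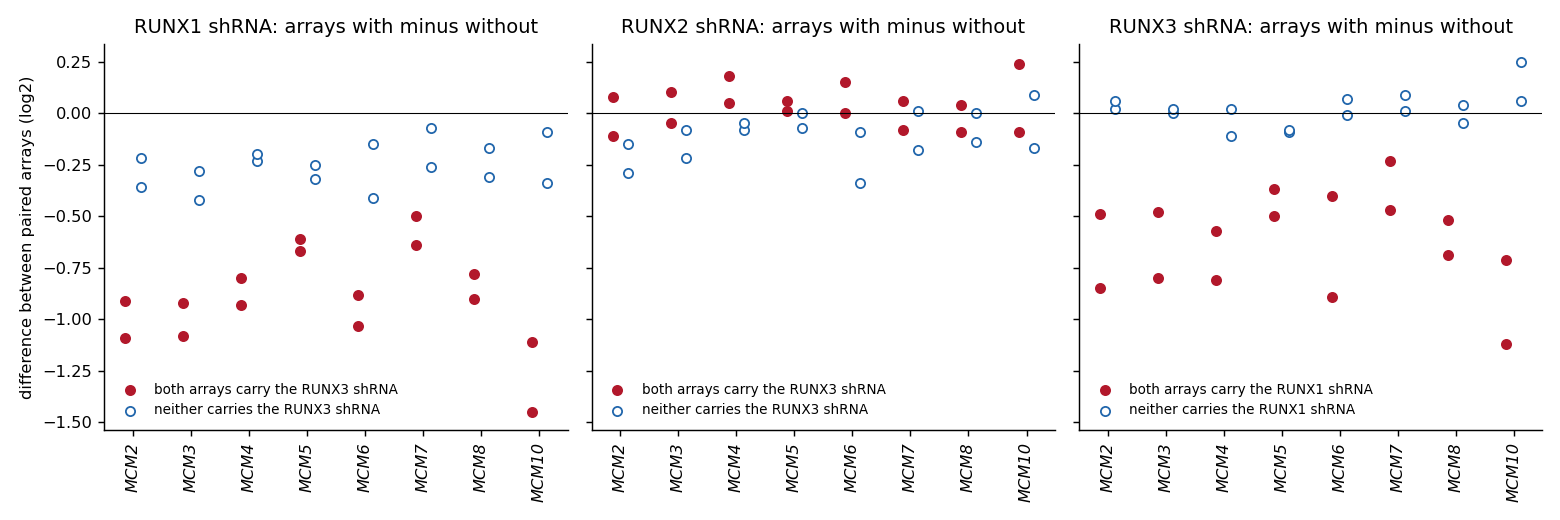
Difference on the log2 scale (vertical axis) between pairs of arrays that differ in 1 shRNA, for each MCM gene (horizontal axis), 1 point per pair and 4 pairs per gene and panel. In the left panel all points lie below 0, and the filled points (RUNX3 shRNA on both arrays of the pair) lie below the open ones for every gene.

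The RUNX1 by RUNX3 interaction asks whether both shRNAs together differ from the sum of their separate terms. Its estimate was negative for 8 of 8 MCM genes, with a median of -0.65 against 0.02 for all genes tested, and ran from -0.35 ± 0.103 (SE) for MCM5 to -1.07 ± 0.161 for MCM10. None passed, with limma adjusted p between 0.249 and 0.304, and the fit called 0% of all genes lower. At an unadjusted limma p under 0.05 there were 8 of 8 MCM genes, all lower. Of all genes there were 1544 (12.7%) in either direction, 803 of them lower.

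Both arrays that joined the RUNX1 and RUNX3 shRNAs lay below the 6 other knockdown arrays for 8 of 8 MCM genes, which was also the case for 13.3% of all tested genes. The distance between the higher of these 2 arrays and the lowest of the other 6 was 0.71 for MCM10, 0.57 for MCM4 and 0.52 for MCM8. A distance of at least 0.5 was thus seen for 3 of 8 MCM genes, against 0.733% of all genes. The range of the 6 other arrays was wider than this distance for MCM2 (0.53 against 0.49), MCM3 (0.50 against 0.48), MCM6 (0.49 against 0.40) and MCM7 (0.35 against 0.23).

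Against shLuc, the shRUNX1+shRUNX3 array was at least 2-fold lower for 5 of 8 genes, MCM2, MCM3, MCM4, MCM6 and MCM10, as it was for 1.49% of all tested genes. MCM10 stood at 43.4% of its shLuc level and MCM3 at 47.3%, while MCM7 stood at 68.6%. MCM2, MCM3, MCM4 and MCM6 lay close to the 2-fold limit, with differences of -1.07, -1.08, -1.04 and -1.04 on the log2 scale. After centring on housekeeping genes 1 of 8 passed the limit, and the share of all genes was not counted for that scaling. On the triple array none of the 8 was 2-fold lower (0.873% of all genes were), the median difference from shLuc was -0.87, and 7 of 8 were at least 1.5-fold lower, against 4.27% of all genes. MCM2, at 50.3% of shLuc, came nearest to the 2-fold limit. These are differences of single arrays, with no replicate check.

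Genes of origin recognition and loading had RUNX1 terms on both sides of 0. Of these, CDC6 (-0.75), ORC6 (-0.69), ORC1 (-0.65) and CDT1 (-0.57) had RUNX1 terms of the size seen in the MCM genes, and so did GMNN (-0.52), the inhibitor of CDT1. Within the origin recognition complex, ORC2 was at 0.04, ORC3 at 0.06, and ORC4 and ORC5 at -0.03 each. No gene of this list passed limma's adjusted p of 0.05 in the additive fit (0.101 to 0.836). With the RUNX1:RUNX3 product in the model 4 of 9 were called lower, namely ORC1, ORC6, CDC6 and CDT1.

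The genes that turn the loaded ring into an active helicase had negative RUNX1 terms in 12 of 12 cases, with a median of -0.55. They ran from -0.80 for GINS2, a subunit of the GINS complex, and TICRR, which helps to recruit CDC45, to -0.31 for MTBP, the partner of TICRR. None passed the additive fit (limma adjusted p 0.0949 to 0.16), and 11 of 12 were called lower with the product term. Fork genes had a median of -0.39 over 22 genes, all negative, with POLE2, a subunit of the leading-strand polymerase, at -0.80 and RPA2, of the single-strand binding complex, among the 2 nearest to 0. Genes of G2 and mitosis had a median of -0.59 over 17 genes, all negative, with FOXM1, a transcription factor of mitotic genes, at -0.86. The MCM genes were not alone in their direction or size.

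The 5 genes with MCM in their name or tied to the MCM proteins had a median RUNX1 term of -0.12, and their difference from the MCM genes was not tested. MCM9, the partner of MCM8, had a RUNX1 term of -0.23 ± 0.079 (SE), and MCMBP, which binds MCM proteins, one of -0.12 ± 0.0677. MCM3AP, an mRNA export gene that also acts on MCM3, was at -0.02 and MCMDC2, a meiotic gene, at 0.17. HROB, which recruits the MCM8 and MCM9 helicase, was at -0.49 with a limma adjusted p of 0.0817, and it was the 1 of these 5 genes called with the product term. The 10 housekeeping genes tested had a median of -0.01. The E2F, RB and G1/S cyclin genes had a median of -0.46, with 15 of 18 negative. They ran from E2F8 (-0.86) and E2F1 (-0.83) to the cyclin-dependent kinase gene CDK6 (0.32). None of the 18 passed the additive fit (limma adjusted p 0.0892 to 0.787). With the product term 10 of 18 were called lower and CDK6 was called higher.

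**Figure D3:**
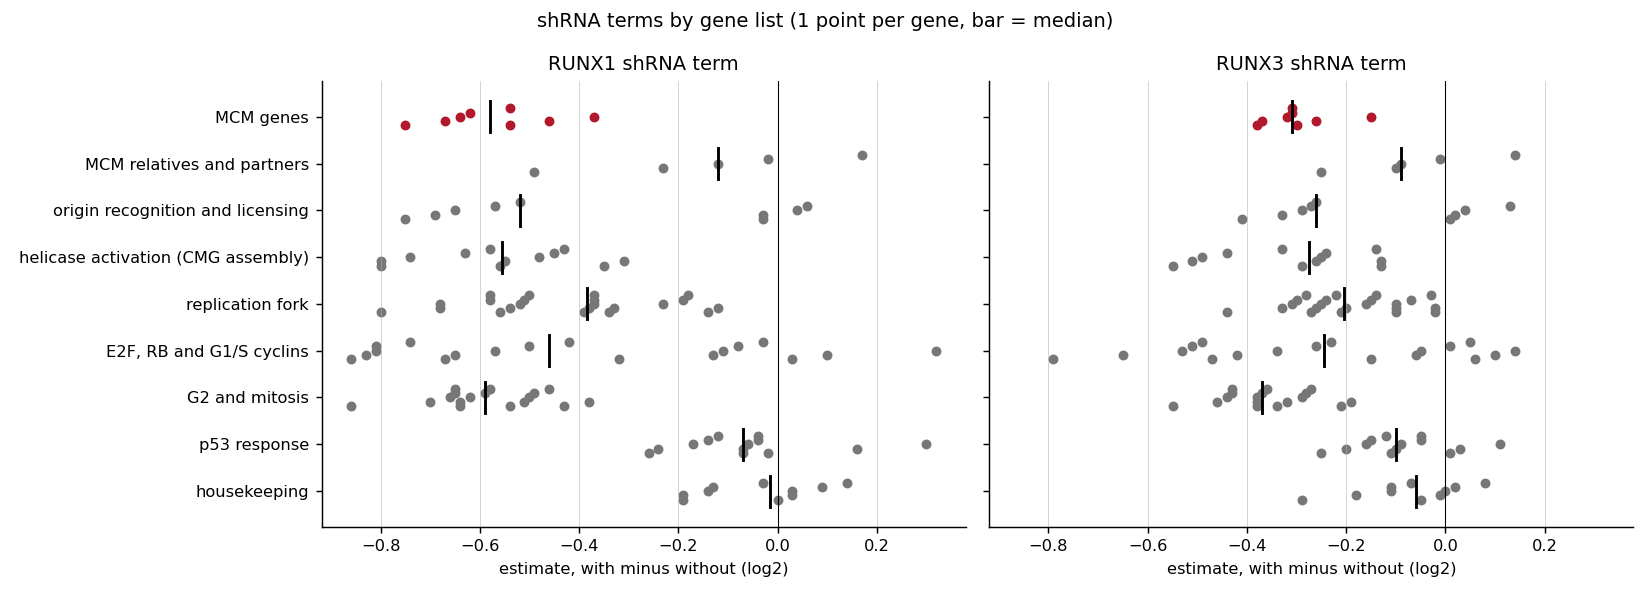
Estimates of the RUNX1 (left) and RUNX3 (right) shRNA terms on the log2 scale (horizontal axis) for each tested gene of 9 gene groups (vertical axis), 1 point per gene with the median as a bar. The MCM genes (red) lie between -0.75 and -0.37 in the RUNX1 panel, among the other replication and mitosis genes, while housekeeping genes centre near 0.

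Among themselves, the MCM genes followed nearly the same course over the knockdown arrays. Over the 28 pairs of MCM genes, Pearson's r over the 8 arrays ran from 0.96 to 0.996 with a median of 0.984. These points share arrays and their scaling, and the correlation is a description. The genes outside the family most like the mean of MCM2 to MCM7, by Pearson's r over the 11 arrays, were GINS2 (0.993), WDR76 (0.992), SMC1A (0.99), USP1 (0.99) and DTL (0.989). They were followed by RFC4 (0.989), UNG (0.988), ORC6 (0.987), ZWINT (0.986) and TK1 (0.983). Against the same mean, MCM5 (0.975), MCM7 (0.974), MCM8 (0.954) and MCM10 (0.939) lay below these 10 genes. The mean includes MCM5 and MCM7 themselves, but not MCM8, MCM10 or the 10 genes. Over the 8 knockdown arrays alone, r was 0.995 for MCM8 and 0.984 for MCM10. GINS2 itself was at 6.29 on the shRUNX1+shRUNX3 array and 6.41 on the triple array, against 7.66 on shLuc.

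With the compounds, all 8 MCM genes were higher than on the DMSO array, by less than 1.5-fold. MCM10 was at 8.98 with Chb-M' and 8.78 with Chb-50, against 8.44 with DMSO. MCM2 was at 9.23 with Chb-M' and 9.06 with Chb-50, against 8.79 with DMSO. MCM4 was at 10.27 with Chb-M' and 10.09 with Chb-50, against 9.88 with DMSO. The order Chb-M', Chb-50, DMSO from high to low was the same in all 8 genes, except that with housekeeping centring MCM7 was lower with Chb-M' than with Chb-50 (-0.02). MCM3 was at 9.49, 9.33 and 9.11 in that order, and MCM5 at 9.61, 9.47 and 9.40. MCM6 was at 9.42, 9.32 and 9.25, MCM7 at 9.62, 9.58 and 9.35, and MCM8 at 9.12, 9.07 and 8.98.

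The difference of Chb-M' from DMSO had a median of 0.32, from 0.14 for MCM8 to 0.54 for MCM10, and 0 of 8 genes reached 1.5-fold higher, which 2.25% of all genes did. A limma fit over all 11 arrays, which assumes that the compound arrays vary like the knockdown arrays, gave 95% intervals that included 0 for all 8, such as -0.27 to 1.15 for MCM2. Its adjusted p ran from 0.583 to 0.874, and it called 0.132% of all genes higher. For Chb-50 minus DMSO the median was 0.21, with limma adjusted p from 0.826 to 0.992, and 0% of all genes were called higher. The DMSO array itself was lower than shLuc for 7 of 8 MCM genes, with a median difference of -0.32. This is as large in size as the median difference of Chb-M' from DMSO. The DMSO and shLuc cultures also differ in transduction, doxycycline and time, which cannot be told apart here. Their difference is therefore no measure of the spread between like arrays.

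Chb-M' and Chb-50 were given at the same dose and time and form 1 pair. Chb-M' minus Chb-50 was between 0.03 (MCM7) and 0.20 (MCM10), with a median of 0.15. The pooled-spread limma intervals were wide, -0.42 to 0.49 for MCM7 and -0.80 to 1.21 for MCM10, with adjusted p from 0.97 to 1. No difference between the compounds was detectable in the MCM genes, and the intervals do not show that the compounds act alike.

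Other groups on the same compound arrays went in different directions. Of the licensing genes, 7 of 9 were higher with Chb-M' than with DMSO, CDC6 (0.63) and CDT1 (0.55) by the most, while ORC5 (-0.22) and ORC4 (-0.44) were lower. The helicase activation genes ran from GINS2 (0.51) to DBF4 (-0.23), and the fork genes from CLSPN (0.60) to PRIM2 (-0.67, limma adjusted p 0.0805). The G2 and mitosis genes had a median difference of -0.57, with 16 of 17 lower and CENPE, a mitotic motor, at -1.77 (limma adjusted p 0.0842). The p53 response genes were higher in 13 of 13 cases with a median of 0.82, and 2 of them were called, among them CDKN1A, the cyclin-dependent kinase inhibitor p21, at 1.44 (limma adjusted p 0.047). No p53 response gene was called with housekeeping centring, with no level filter, or on leaving out any of 7 of the 8 knockdown arrays, and GADD45A alone was called without the shRUNX1 array. With the RUNX1 shRNA, in contrast, the MCM genes and the G2 and mitosis genes were both on the lower side, and the p53 response genes had a median of -0.07. Whether the compound and knockdown responses differ was not tested.

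**Figure D4:**
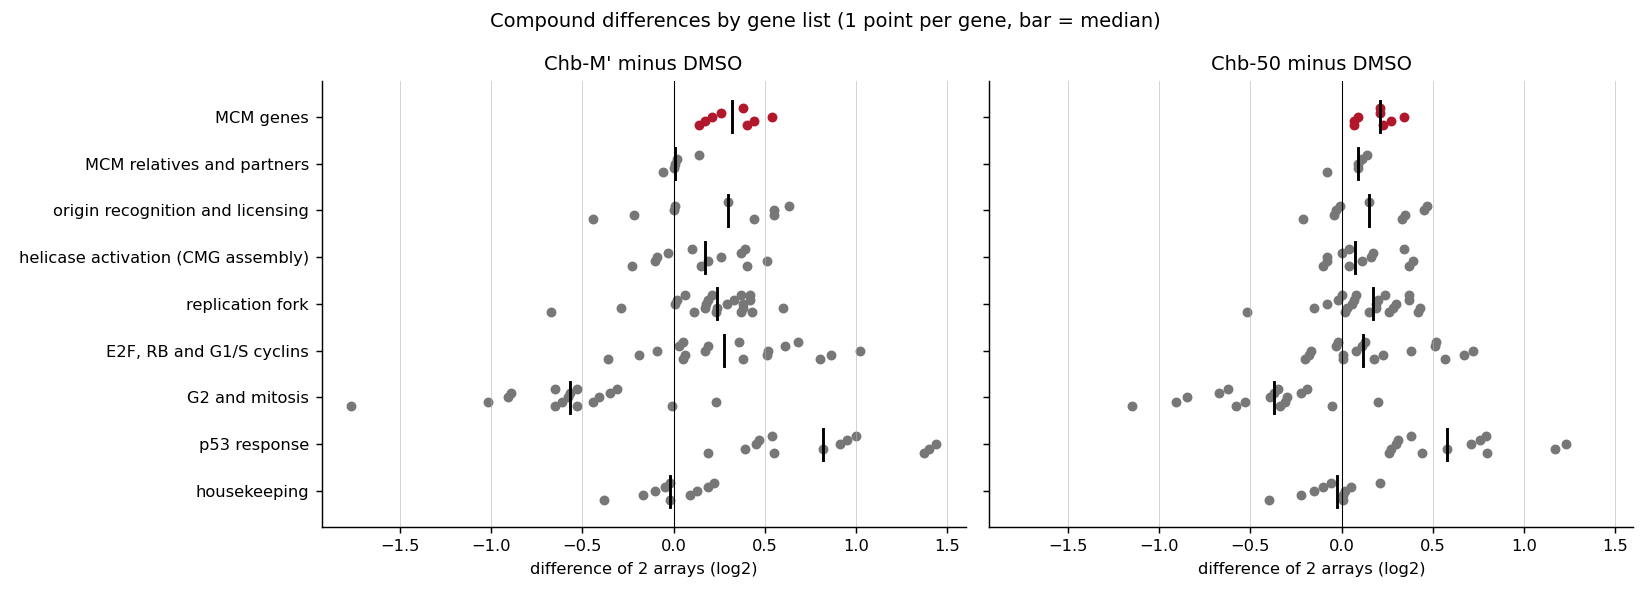
Difference from DMSO on the log2 scale (horizontal axis) with Chb-M' (left) and Chb-50 (right) for each tested gene of 9 gene groups (vertical axis), 1 point per gene with the median as a bar, from 1 array per condition. The MCM genes (red) lie between 0.14 and 0.54 with Chb-M', on the other side of 0 from most G2 and mitosis genes.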

How the data were processed

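The authors deposited 1 log2 level for each transcript cluster and array. The submitters' processing notes name RMA, Transcriptome Analysis Console 1.0 and Affymetrix Expression Console 1.3.1 without saying what each did, and that the scale is log2 was inferred from the range of values. Of 53617 clusters, 23558 had 1 gene symbol, 2155 several and 27904 none listed. The highest-mean cluster stood for each gene, and genes reaching 3.80 (the median of all 1-symbol values) on any array were tested. Fits used limma 3.58.1 in R 4.3.3 with eBayes and Benjamini-Hochberg adjustment over all 12147 genes at a threshold of 0.05. The RUNX1 term of the additive fit was checked on simulated data that held no interaction between shRNAs. The other fits were not checked in this way.

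The additive fit had 4 residual degrees of freedom and the interaction fit 3. The residual spread comes from arrays of different conditions and includes interactions between shRNAs. No condition has a replicate array, so the p-values rest on a spread between these arrays that may be technical. The number of arrays limits the precision. The members, gene lists and comparisons were chosen with earlier results of these data known. Named genes were the 8 MCM genes, the RUNX genes and the 10 genes most like MCM2 to MCM7. From the gene lists, some but not all of the 2 lowest and 2 highest genes were named. Further named genes were picked with their values in view. Alternatives were other scalings, filters, variance models, product terms and leaving out each knockdown array.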

Additional observations from a re-analysis of the deposited data

Results flagged for a closer look

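The RUNX3 shRNA differences had opposite signs in the pairs with and without the RUNX1 shRNA for 3 genes. Without the RUNX1 shRNA they were small, 0.02 and 0.06 for MCM2, 0.09 and 0.01 for MCM7, and 0.25 and 0.06 for MCM10. Each was below the gene's residual SD in the additive fit (0.269, 0.156 and 0.393, in that order). That SD includes the RUNX1 by RUNX3 interaction itself, so it cannot show that these differences lie within the spread between arrays. The mean RUNX3 difference with the RUNX1 shRNA minus that without it was -0.71 for MCM2, -0.40 for MCM7 and -1.07 for MCM10 on the log2 scale. These values equal the RUNX1 by RUNX3 interaction estimates, which did not pass limma's adjusted p of 0.05 (0.249 for MCM2 and MCM10, 0.304 for MCM7). For MCM4, the RUNX2 shRNA differences were positive in both pairs with the RUNX3 shRNA (0.05 and 0.18). They were negative in both pairs without it (-0.08 and -0.05). The 2 kinds of pair were 0.18 apart on average, and this difference was not tested. It lay below the residual SD of MCM4 (0.241), which likewise includes the RUNX1 by RUNX3 interaction.

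Of 48 sets of 4 arrays with or without 1 shRNA, 3 had an array standing apart relative to the range of the set. The gap divided by the range was 0.859 for MCM6 on the arrays without the RUNX1 shRNA, 0.856 for MCM6 on those without the RUNX2 shRNA, and 0.832 for MCM7 on those without the RUNX1 shRNA, against a limit of 0.829. The sets without the RUNX1 shRNA were narrow, from 9.49 to 9.58 for MCM6 and from 9.64 to 9.74 for MCM7. In the MCM6 set without the RUNX2 shRNA, the array apart was shRUNX1+shRUNX3 (8.54), described above as the lowest. Chance gives about 1 in 20, and the 4 arrays of a set are different conditions, not replicates.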

How the results depend on the processing

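For the RUNX1 term, the number of MCM genes called and of all genes called in either direction was 0 and 0 in the additive fit. It was 1 and 110 (1.74% of 6307, 34 of them lower) with the stricter level filter. With a trend in the prior variance it was 1 and 68 (0.56%, 15 of them lower). It was 8 and 730 (6.01%, 405 lower) with the RUNX1:RUNX3 product, and 7 and 391 (3.22%, 239 lower) with all pairwise products. Leaving out 1 knockdown array gave 0 to 8 MCM genes and 0 to 817 genes (6.73%), the highest without the shRUNX1 array. The median RUNX1 term was -0.26 on the 6 arrays without the RUNX1 and RUNX3 shRNAs together, an alternative chosen after seeing the data. The product terms take up spread that the additive fit leaves in its residuals; the cause of the other moves was not tested.

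Of 864 estimates of MCM genes under alternatives, 25 changed sign, and 24 of these were RUNX2 terms. None of the 25 was called, and the smallest limma adjusted p among them was 0.838. Leaving out 1 array, the RUNX2 term ran from -0.25 to 0.02 for MCM2, -0.18 to 0.06 for MCM3, -0.10 to 0.13 for MCM4, -0.06 to 0.06 for MCM5, -0.21 to 0.08 for MCM6, -0.12 to 0.04 for MCM7, -0.14 to 0.05 for MCM8 and -0.17 to 0.20 for MCM10. MCM7 in Chb-M' minus Chb-50 turned to -0.02 with housekeeping centring.

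For Chb-M' minus DMSO, 74 genes (0.609%) were called in either direction. The count was 41 (0.338%) with housekeeping centring and 49 of 12079 (0.406%) with the mean of all clusters per gene. It was 7 of 22109 (0.0317%) with no level filter and 128 of 6307 (2.03%) with the stricter filter. When 1 knockdown array was left out it was 0 to 77 (0.634%). No MCM gene was among them in any of these settings. The RUNX3 term called 0 to 1 genes when 1 array was left out. MCM genes at least 2-fold from shLuc on the shRUNX1+shRUNX3 array numbered 1 with housekeeping centring, where the share of all genes was not counted. In the scaling as deposited, 7 were at least 1.5-fold lower than shLuc on the triple array, against 4.27% of all genes. No paired analysis was possible because the conditions share only the replicate number 1; pairs of arrays that differ in 1 shRNA are described above. Signal over background is unknown here.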
